A study of Mus musculus with 24 samples.

Results

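Aortas of wild-type C57BL/6 mice infused with β-aminopropionitrile (BAPN) and angiotensin II were compared with aortas of wild-type mice given vehicle, all on plain drinking water. The comparison takes 6 of the 24 arrays of the series: 3 from infused mice (the group named WT_BAPN in the labels) and 3 from vehicle mice (WT_Cont). They were chosen by these labels alone, and no measured value entered the choice. Infusion was continuous and lasted 3 days in both groups, and both were fed normal chow. The agent label of the infused samples names BAPN alone, and the treatment protocol names both agents. By its design text, each group holds 3 biological replicates. The other 18 arrays come from wild-type mice that drank 1% NaCl and from mice lacking IL-17. They enter the shared estimate of the spread, the filter on dim probes and the slide terms, and the infused arrays from mice on 1% NaCl are set beside a few lists. Arrays from wild-type mice on 1% NaCl without BAPN and angiotensin II are set beside a few genes. A dose, an age and the stretch of aorta taken are not given in the labels used here, and the extraction protocol speaks of cells where the sample label says aorta.

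BAPN blocks the lysyl oxidases, the enzymes that crosslink collagen and elastin. Angiotensin II constricts arteries through its type 1 receptor and drives smooth muscle growth and inflammation in the arterial wall. Given together they are a mouse model of aortic dissection, in which blood enters a tear in the medial layer. That layer is made of smooth muscle cells between elastic lamellae. Endothelium lines it on the inside, and an adventitia of fibroblasts, resident macrophages, nerves and fat surrounds it.

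RNA was labelled with Cy3 and hybridised to one-colour Agilent arrays. A level below is a normalised log2 signal, the log2 processed signal of a gene's brightest probe minus the array's 75th percentile, so that 0 is the 75th percentile of that array. Values are always listed in the order of arrays 1, 2 and 3 of a group. Levels of different genes come from different probes and are not set against each other. Between 60.38% and 60.84% of spots were well above background on the infused arrays, against 56.56% to 60.24% on the controls, and 0 spots were saturated. Of the list genes named below 49 have more than 1 kept probe, and in 16 of these the calls of the probes, adjusted over all probes, differ from each other or from the call of the gene. A gene was called where limma's moderated test of infused minus control, fitted on all 23503 genes and all 24 arrays, gave a Benjamini-Hochberg adjusted p under 0.05. The spread in this test is pooled over all 8 groups. For a gene high on infused arrays 1 and 2 alone, the infused arrays themselves can spread more widely than that.

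The smooth muscle markers Acta2, Tagln and Cnn1 were well above background on all 6 arrays. So were the endothelial markers Cdh5 and Vwf. Il17a (mm9 chromosome 1, 20724404 to 20724463) and Il17f, the IL-17 cytokines, were well above background on 0 of the 6, and neither was tested. Of 8 tested IL-17 family members, receptors and adaptors, 0 were called higher and 2 lower (0 and 0 with the slide block). These counts stand beside 12.2% and 13.7% of all genes. The lower pair were the receptor Il17rd (log2 change −0.57, adjusted p = 0.0254) and the adaptor Traf3ip2 (log2 change −0.49, adjusted p = 0.0328).

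The 3 infused arrays lay on one slide and the 3 controls on another, and no slide held both groups, so no value within a slide can be given. A slide term can be fitted only through another group, infused mice on 1% NaCl. Its arrays 1 and 2 lay on the slide of the controls and its array 3 on the slide of the infused arrays. Estimates with slide as a fixed block therefore rest on that single array against the other two. They are printed beside the list counts and the leading genes, because infusion and slide cannot otherwise be told apart.

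Infused array 3 also stood apart. The share of genes more than 1 log2 unit from the mean of the controls was 16.07%, 17.9% and 6.642% on the infused arrays, against 0.9318%, 0.8637% and 1.157% on the controls. Pearson's r across all genes was 0.99087 between infused arrays 1 and 2, and 0.97317 and 0.97131 between array 3 and these. Between controls it was 0.98698 to 0.99072. Signals of the leading genes are given for each array.

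Infusion was followed by higher mitosis, DNA replication, chemokine, macrophage and collagen transcripts and by lower calcium-handling and adventitial fibroblast transcripts. In all, 6085 of 23503 genes were called (25.9%), 2863 of them higher (12.2%) and 3222 lower (13.7%), and the median log2 change of all genes was −0.02. With slide as a fixed block 171 genes were called higher (0.728%) and 90 lower (0.383%). Without infused array 3 the calls were 3907 higher (16.6%) and 4196 lower (17.9%). The calls came to 2674 without infused array 2, to 3760 without control array 1 and to 1237 with the 6 compared arrays alone in the fit. All 3 infused arrays lay above all 3 controls for 3778 genes (16.1%) and below them for 4430 (18.8%). The counts of called members in the lists below stand against these shares of all genes.

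**Figure D1:**
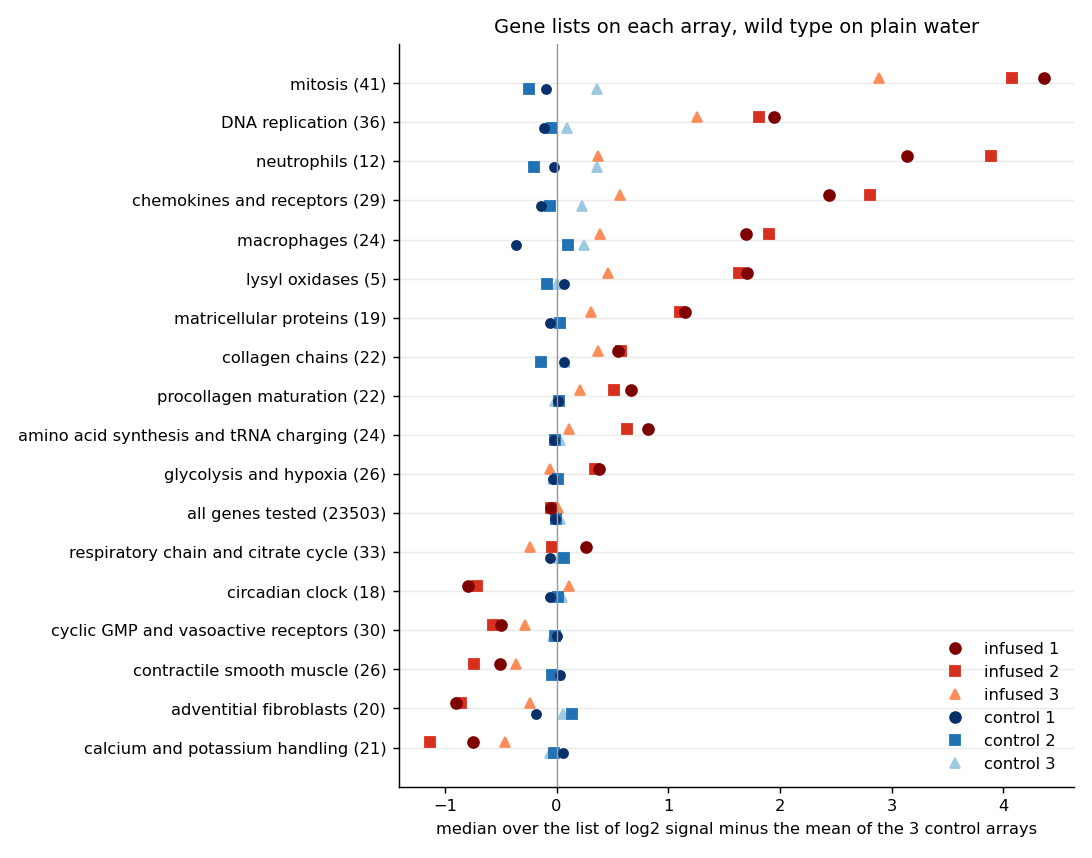
Median over each gene list of the normalised log2 signal minus the mean of the 3 control arrays, for each infused array (reds) and each control array (blues), with the number of tested genes in brackets. The mitosis list stands highest, at 4.36, 4.08 and 2.89 on the infused arrays, and infused array 3 lies nearer the controls than arrays 1 and 2 in the mitosis, chemokine and macrophage lists.

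**Figure D2:**
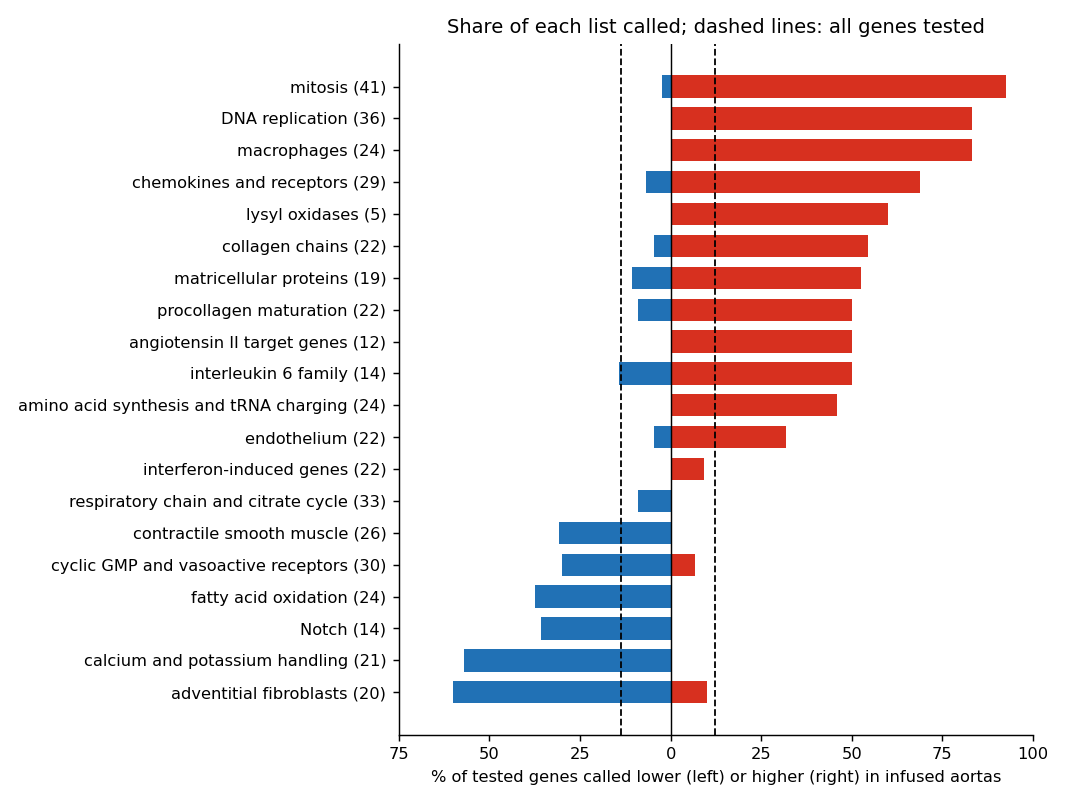
Percentage of the tested genes of each list that limma called higher (right, red) or lower (left, blue) in infused aortas, with the number tested in brackets. Dashed lines mark the share among all genes tested, 12.2% higher and 13.7% lower.

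The genes closest to the infused agents were examined first. Of the 5 lysyl oxidases, the targets of BAPN, 3 were higher and 0 lower, with list medians of 1.71, 1.63 and 0.46 on the infused arrays. Lox, the founding member, had levels of 3.55, 3.66 and 1.97 on infused arrays 1 to 3, against 1.31, 0.90 and 1.11 on control arrays 1 to 3. Loxl2, which also crosslinks basement membrane collagen, had levels of 3.15, 3.24 and 2.28 in infused aortas, against 1.51, 1.18 and 1.64 in control aortas. Both groups were separate for both genes, array 3 being the lowest infused array. Loxl2 was called with and without the slide block (log2 changes 1.88 and 1.45, adjusted p = 0.0389 and 0.000618), while Lox was called only without it (log2 change 1.39, adjusted p = 0.227 with the block). Loxl4 was higher as well (log2 change 1.37, SE 0.32, adjusted p = 0.00512). The paralogue Loxl1, which acts mainly on elastin, had levels of 5.68, 5.40 and 5.22 in infused aortas, against 5.52, 5.42 and 5.43 in control aortas, and Loxl3 those of 2.52, 2.38 and 2.27 in infused aortas, against 2.44, 2.31 and 2.43 in control aortas. The groups overlapped for both and neither was called (log2 change −0.03, adjusted p = 0.904 for Loxl1 and log2 change 0.00, adjusted p = 0.99 for Loxl3).

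Among 10 genes of the renin-angiotensin system and its steroid arm, 1 was higher and 2 were lower, against 0 and 0 with the slide block. The type 1 angiotensin receptor of rodents comes as a pair of genes, and these differed. Agtr1b had levels of −1.55, −2.02 and −1.66 in infused aortas, against −3.40, −3.40 and −3.59 in control aortas. Agtr1a had levels of −1.66, −2.45 and −2.34 in infused aortas, against −1.84, −1.60 and −1.58 in control aortas. Every infused array exceeded every control for Agtr1b, by a similar amount on all 3 (log2 change 1.72, SE 0.28, adjusted p = 0.000411), whereas Agtr1a was not called and its groups overlapped (log2 change −0.48, adjusted p = 0.171). With the slide block Agtr1b kept its size and lost its call (log2 change 1.75, adjusted p = 0.0731). The copies are near-identical in their coding sequence, and cross-hybridisation of their probes was not tested. Nr3c2, the mineralocorticoid receptor, had levels of −4.61, −4.49 and −2.31 in infused aortas, against −2.41, −2.13 and −2.21 in control aortas. It was lower on infused arrays 1 and 2 alone, array 3 lying among the controls (log2 change −1.55, adjusted p = 0.0223). The angiotensin-converting enzyme Ace was not called (log2 change −0.54, adjusted p = 0.0759).

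Of 12 genes that angiotensin II is known to induce in vascular cells, 6 were higher and 0 lower, 0 of them with the slide block. Ptgs2, the inducible cyclooxygenase, had levels of 3.43, 3.46 and 0.47 in infused aortas, against −1.05, −0.01 and −1.58 in control aortas. Rcan1, a calcineurin inhibitor, had levels of 3.36, 2.99 and 1.13 in infused aortas, against 0.38, 0.91 and 0.39 in control aortas. Groups were separate for both genes, and infused array 3 lay closest to the controls (log2 change 3.34, adjusted p = 0.00285 for Ptgs2 and log2 change 1.93, adjusted p = 0.00346 for Rcan1). Hbegf, a ligand of the EGF receptor, was also higher (log2 change 1.37, SE 0.38, adjusted p = 0.0125). Edn1, which encodes the constrictor endothelin 1, was not called (log2 change 1.05, adjusted p = 0.108).

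Among 20 immediate early genes 3 were higher and 1 lower, shares near or below the 12.2% and 13.7% of all genes, with a median of −0.01. Under the slide block 0 were higher and 2 lower, with a median of −0.47, and without infused array 3 5 were higher. Myc, a growth regulator, had levels of −0.73, −0.27 and −2.44 in infused aortas, against −3.05, −2.78 and −2.69 in control aortas. It was raised on infused arrays 1 and 2 and only just above the controls on array 3 (log2 change 1.69, adjusted p = 0.00823). Fosl1, a subunit of the AP-1 factor, was seen above background on every infused and on 0 of 3 control arrays, and was at least 4.32-fold higher (adjusted p = 0.021). The classical first responders were not among the genes called higher, with log2 changes of −0.45 for Fos, −0.84 for Egr1 and −0.18 for Jun (adjusted p = 0.626, 0.154 and 0.721).

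Of the 47 gene lists, mitosis had the largest median change. Of 41 tested genes of the spindle, kinetochore and cytokinesis, 38 were higher and 1 was lower, beside 12.2% and 13.7% of all genes. The list's median log2 change was 3.71, or 3.66 with its 7 genes not above background in a group set at their bounds. By array the medians were 4.36, 4.08 and 2.89 on the infused arrays, against −0.10, −0.25 and 0.36 on the controls. Infused array 3 thus showed 68.4% of the mean of arrays 1 and 2. Fitted with the slide block, 23 were higher and 1 lower, with a median of 3.02. Infused mice on 1% NaCl had medians of 4.03, 3.04 and 4.34 against the same controls, the pair on the slide of the controls coming first.

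Many mitotic genes are known to carry 2 short promoter elements, the CCAAT box (CCAAT, bound by NF-Y) and the cell-cycle homology region (CHR, TTTGAA, bound by the MuvB complexes). Both were searched on both strands in the 250 bases before the start site in RefSeq promoter windows, of which 34 of the 41 genes had at least 1. CCAAT was found in 27 of 36 windows (75%), against 33.8% of all 32851 windows, and TTTGAA in 12 of 36 (33.3%), against 16%. For 36 DNA replication genes the shares were 57.1% and 14.3% of 35 windows. These matches describe the letters and say nothing of binding. The last 120 bases before the start are shown for 4 genes that the results below turn on, 5′ to 3′ on the strand of the gene, from RefSeq on GRCm38.p6, with matches to CCAAT or TTTGAA on either strand in capitals.
Cdk1 (chr10:69352913-69353032, minus strand): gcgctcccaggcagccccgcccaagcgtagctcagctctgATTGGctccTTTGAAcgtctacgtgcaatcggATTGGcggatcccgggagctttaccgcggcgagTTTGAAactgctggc
Ccnb2 (chr9:70421555-70421674, minus strand): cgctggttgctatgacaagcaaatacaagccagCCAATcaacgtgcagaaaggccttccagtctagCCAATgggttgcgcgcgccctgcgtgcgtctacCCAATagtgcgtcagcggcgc
Cdc20 (chr4:118437344-118437463, minus strand): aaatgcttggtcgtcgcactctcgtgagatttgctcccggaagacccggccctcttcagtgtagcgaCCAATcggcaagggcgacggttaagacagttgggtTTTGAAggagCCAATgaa
Top2a (chr11:99024190-99024309, minus strand): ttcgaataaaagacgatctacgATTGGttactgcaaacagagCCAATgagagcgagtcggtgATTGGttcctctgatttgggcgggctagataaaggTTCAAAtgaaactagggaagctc

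Cdk1, the kinase that starts mitosis, had levels of 1.13, 0.97 and −0.56 on infused arrays 1 to 3, against −5.54, −4.97 and −4.14 on control arrays 1 to 3. Ccnb2, one of its B-type cyclins, had levels of 3.40, 3.09 and 1.97 in infused aortas, against −1.03, −1.30 and −0.63 in control aortas. Cdc20, which activates the anaphase-promoting complex, had levels of 3.58, 3.39 and 2.35 in infused aortas, against −0.51, −0.48 and 0.12 in control aortas. For these 3 genes the infused arrays lay far above every control, array 3 the lowest of the infused and still separate. Cdk1 was above background on 0 of 3 controls and at least 31.6-fold higher with infusion (adjusted p = 6.23e-05). Ccnb2 was 14-fold higher (log2 change 3.81, SE 0.56, adjusted p = 0.00021), and Cdc20 10.5-fold (log2 change 3.40, SE 0.48, adjusted p = 0.000163). All 3 were called with the slide block too (adjusted p = 0.034, 0.026 and 0.0207).

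Top2a, the topoisomerase that untangles chromosomes, had levels of 1.52, 1.13 and 0.22 in infused aortas, against −3.66, −3.88 and −2.94 in control aortas. Mki67, the proliferation antigen Ki-67, had levels of 4.37, 4.33 and 2.97 in infused aortas, against −0.49, −0.74 and 0.29 in control aortas. Both were about as high on infused array 2 as on array 1 and lower on array 3, with no overlap (log2 change 4.45, adjusted p = 0.000128 for Top2a and log2 change 4.21, adjusted p = 7.62e-05 for Mki67). Of kinetochore genes, Nuf2 was at least 18.1-fold higher and Bub1 at least 14-fold (adjusted p = 0.000125 and 6.23e-05), each above background on 0 of 3 controls. Foxm1, a transcription factor of mitotic genes, was higher (log2 change 3.22, adjusted p = 8.82e-05), as were the kinases Plk1 (log2 change 3.66, adjusted p = 0.000286) and Aurka (log2 change 3.95, adjusted p = 0.000188). Without the block all of these were called, and with it Plk1 (adjusted p = 0.0612) and Aurka (adjusted p = 0.0621) were not. The exception was Pttg1, securin, which guards sister chromatid cohesion. It had levels of 4.13, 3.70 and 3.99 in infused aortas, against 4.66, 4.98 and 4.81 in control aortas. All 3 infused arrays lay below the controls, and it was called lower in both fits (log2 change −0.88, adjusted p = 0.000339 and, with the block, log2 change −1.09, adjusted p = 0.0425).

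DNA replication moved less far. Of 36 genes, 30 were higher and 0 lower, with medians of 1.95, 1.82 and 1.26 on the infused arrays and 66.8% retained on array 3. Under the slide block 7 were higher and the median was 0.85. Tk1, which salvages thymidine, had levels of 3.44, 3.19 and 2.07 in infused aortas, against −1.36, −1.52 and −0.95 in control aortas. Mcm5, a subunit of the replicative helicase, had levels of 2.10, 1.74 and 1.36 in infused aortas, against −0.95, −0.96 and −0.68 in control aortas. Pcna, the sliding clamp, had levels of 4.37, 4.06 and 3.75 in infused aortas, against 3.08, 3.35 and 3.01 in control aortas. These genes were separate between groups, with the largest gap for Tk1 (log2 change 4.17, adjusted p = 6.23e-05), a middle one for Mcm5 (log2 change 2.60, adjusted p = 7.53e-05) and the smallest for Pcna (log2 change 0.91, adjusted p = 0.00761). Within the helicase the log2 changes of Mcm2 to Mcm7 were 1.63, 1.37, 0.93, 2.60, 0.60 and 1.28, all called. Other members called higher with the block were the initiation factor Mcm10, the polymerase Pole and the E2F repressor E2f7 (log2 changes 3.43, 3.02 and 3.42 without it). E2f7 was above background on 1 of 3 controls, and its other probe changed by 0.10. Gins3 and Tyms were not called (log2 change 0.13, adjusted p = 0.53 and log2 change 0.53, adjusted p = 0.115).

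Of 20 inhibitors of the cycle and D cyclins, 6 were higher and 4 lower (0 and 1 with the slide block). Cdkn1a, the inhibitor p21, had levels of 2.47, 2.57 and 1.08 in infused aortas, against 0.95, 0.83 and 1.13 in control aortas. It was raised on infused arrays 1 and 2 and lay within the control range on array 3 (log2 change 1.07, adjusted p = 0.0214). Of 2 Cdkn1a probes 1 was called higher, with log2 changes of 0.38 and 1.07. Cdkn2c, an inhibitor of the D cyclin kinases, was higher on all 3 (log2 change 1.44, adjusted p = 0.00552). The inhibitors Cdkn1b and Cdkn1c were lower (log2 change −0.54, adjusted p = 0.00181 and log2 change −0.79, adjusted p = 0.0143). Ccnd1 and Ccnd2, both D cyclins, moved in opposite directions (log2 change 0.65, adjusted p = 0.00245 and log2 change −0.79, adjusted p = 0.000972).

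**Figure D3:**
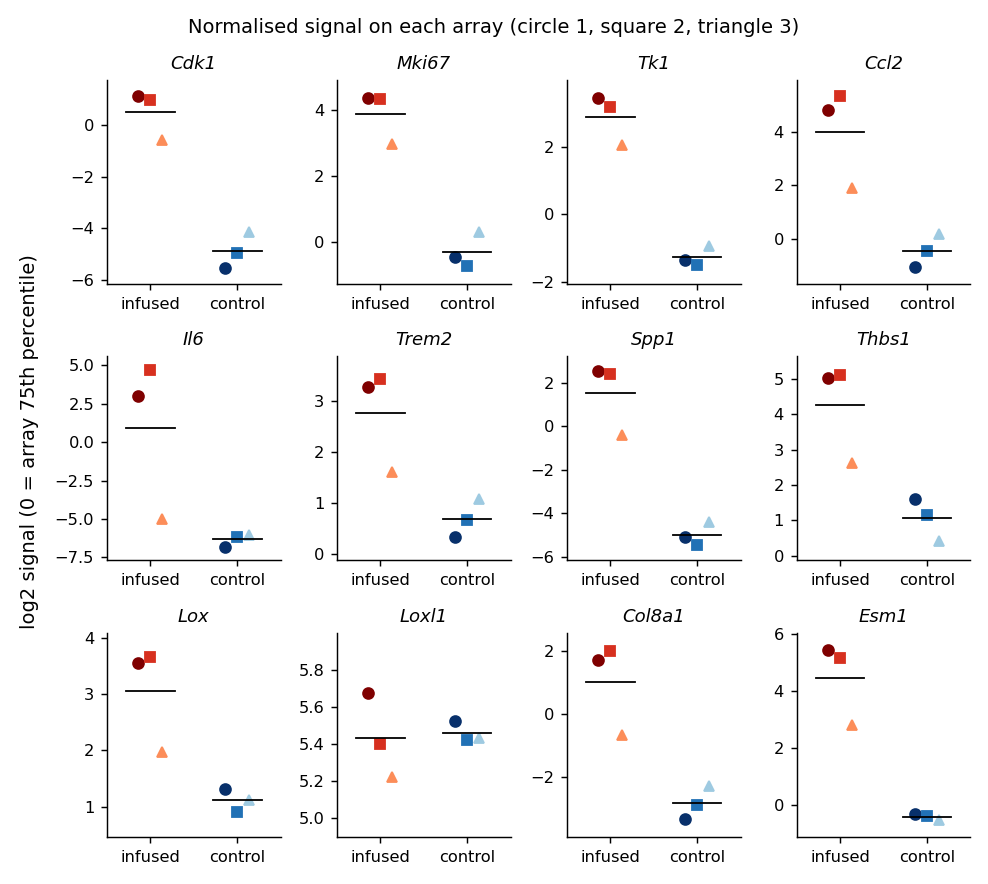
Normalised log2 signal of 12 genes on each infused array (reds, left) and each control array (blues, right), with the group mean as a line. Cdk1, Mki67 and Tk1 stay far above the controls on infused array 3, Il6 does so only on arrays 1 and 2, and Loxl1 overlaps between groups.

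Of 22 collagen chains, 12 were higher and 1 lower, with list medians of 0.55, 0.58 and 0.37 on the infused arrays, array 3 at 65.4% of the others. Under the slide block 6 were higher, beside 0.728% of all genes, and the median was 0.85. Col1a1, the main chain of type I collagen, had levels of 7.46, 7.67 and 7.33 in infused aortas, against 6.80, 6.59 and 6.83 in control aortas. Col3a1, its type III partner, had levels of 7.99, 8.16 and 7.82 in infused aortas, against 7.39, 7.29 and 7.59 in control aortas. Col12a1, which sits on the surface of collagen fibrils, had levels of 1.45, 1.97 and 0.76 in infused aortas, against −1.26, −1.43 and −1.02 in control aortas. All 3 infused arrays exceeded all controls in each, and for the 3 genes array 3 was the lowest infused array. They were called without the block (log2 change 0.75, adjusted p = 0.000223 for Col1a1, log2 change 0.56, adjusted p = 0.00192 for Col3a1 and log2 change 2.63, adjusted p = 3.94e-05 for Col12a1) and with it (adjusted p = 0.0463, 0.0392 and 0.0102). Col11a1, which nucleates fibrils and marks cartilage, stood above background on every infused and on 0 of 3 control arrays and was at least 4.14-fold higher (adjusted p = 0.000539). Col4a1 and Col4a5, chains of basement membrane networks, went opposite ways (log2 change 0.58, adjusted p = 0.0181 and log2 change −0.56, adjusted p = 0.0235).

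Of the enzymes and chaperones that mature procollagen more were higher than lower, 11 of 22 being higher and 2 lower. Plod2, a lysyl hydroxylase whose product feeds the crosslinks that lysyl oxidases make, had levels of 3.61, 3.84 and 3.44 in infused aortas, against 2.23, 2.18 and 2.65 in control aortas. It was the one member called with the slide block (log2 change 1.71, adjusted p = 0.00546; without it log2 change 1.28, adjusted p = 9.07e-05), and its groups were separate. Fkbp10 and Serpinh1, collagen chaperones of the endoplasmic reticulum, were higher (log2 change 1.02, adjusted p = 0.00021 and log2 change 0.65, adjusted p = 0.000878). The procollagen peptidases Bmp1 and Adamts2 were not called (log2 change 0.08, adjusted p = 0.718 and log2 change −0.27, adjusted p = 0.267), but 1 of 3 Bmp1 probes was called higher, with log2 changes of 0.08 to 0.88.

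Elastic fibre genes did not move as one. Of 17, 4 were higher and 3 lower (0 and 0 with the slide block), and the list's median was 0.18. Eln, tropoelastin, had levels of 6.72, 6.53 and 6.26 in infused aortas, against 5.72, 4.98 and 5.15 in control aortas. Fbn1, the microfibril protein fibrillin 1, had levels of 4.85, 4.73 and 4.26 in infused aortas, against 3.91, 3.70 and 3.77 in control aortas. Both were higher on each infused array than on any control (log2 change 1.22, SE 0.23, adjusted p = 0.00116 for Eln, log2 change 0.82, SE 0.14, adjusted p = 0.000644 for Fbn1), and neither was called with the block (adjusted p = 0.172 and 0.215). Ltbp4 and Fbln1, which also bind elastic fibres, were lower (log2 change −1.37, adjusted p = 0.00149 and log2 change −1.63, adjusted p = 0.00595), and the assembly factors Fbln5 and Efemp2 were not called (log2 change −0.13, adjusted p = 0.546 and log2 change 0.18, adjusted p = 0.181).

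Matricellular proteins, which sit in the matrix and signal to cells, held some of the steepest changes, with 10 of 19 higher and 2 lower. Cthrc1, made by activated fibroblasts and smooth muscle after arterial injury, had levels of 2.84, 2.95 and −0.32 in infused aortas, against −3.02, −3.16 and −2.18 in control aortas. Thbs1, which activates latent TGF-beta, had levels of 5.02, 5.10 and 2.62 in infused aortas, against 1.61, 1.16 and 0.41 in control aortas. Tnc, tenascin C, had levels of 1.45, 1.44 and 0.73 in infused aortas, against −0.70, −1.03 and −0.06 in control aortas. No array of one group overlapped the other, and the margin of infused array 3 was the smallest each time (log2 change 4.61, adjusted p = 0.000633 for Cthrc1, log2 change 3.19, adjusted p = 0.000291 for Thbs1, log2 change 1.81, adjusted p = 0.000604 for Tnc). The lower pair were Tnxb and Sparcl1 (log2 change −1.31, adjusted p = 0.0175 and log2 change −1.42, adjusted p = 0.0103). Sparc, the best-studied member, was not called by its brightest probe (log2 change 0.11, adjusted p = 0.536), while its other probe was called higher (log2 change 0.68). With the slide block the list had 0 higher and 0 lower.

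Among 23 proteoglycan, hyaluronan and aggrecanase genes 6 were higher and 4 lower (1 and 0 with the slide block). Acan, the large cartilage proteoglycan aggrecan, had levels of 2.89, 2.66 and 1.57 in infused aortas, against 0.44, 0.40 and −0.14 in control aortas. Infused and control arrays were far apart, and it was called in both fits (log2 change 2.14, adjusted p = 6.23e-05 and, with the block, log2 change 1.99, adjusted p = 0.0468). Has1 and Has2, which make hyaluronan, behaved otherwise: Has2 had levels of −0.56, −0.44 and −3.53 in infused aortas, against −3.66, −3.29 and −3.26 in control aortas. Arrays 1 and 2 were high and array 3 sat among the controls (log2 change 2.65, adjusted p = 0.0266 for Has1 and log2 change 1.89, adjusted p = 0.0405 for Has2), and with the slide block the log2 change of Has2 was −0.37. The small leucine-rich proteoglycans Dcn and Ogn were lower (log2 change −0.66, adjusted p = 0.00329 and log2 change −1.87, adjusted p = 0.000617), and Lum had levels of 5.71, 6.04 and 5.69 in infused aortas, against 4.78, 5.16 and 4.97 in control aortas. Its groups did not overlap, yet the spread over all 24 arrays left it uncalled (log2 change 0.84, SE 2.04, adjusted p = 0.796). Vcan, versican, was not called by its brightest probe (log2 change 0.07, adjusted p = 0.745), while 2 of its 3 probes were called higher, with changes of up to 1.17.

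Of 11 plasminogen activation and cathepsin genes 6 were higher and 1 lower (0 and 0 with the slide block). Plau, urokinase, was above background on 3 of 3 infused arrays and 1 of 3 controls and was higher (log2 change 2.51, adjusted p = 0.000362), as was its receptor Plaur (log2 change 1.44, adjusted p = 0.00967). Ctss, an elastin-degrading cathepsin of macrophages, had levels of 4.87, 5.11 and 3.12 in infused aortas, against 2.21, 2.69 and 3.13 in control aortas. It was high on arrays 1 and 2, while array 3 was no higher than the highest control (log2 change 1.69, adjusted p = 0.00952). Of 13 metalloproteinase and inhibitor genes 4 were higher and 2 lower (0 and 0 with the slide block). Mmp3, stromelysin 1, had levels of 4.14, 4.65 and 4.16 in infused aortas, against 2.85, 3.04 and 2.52 in control aortas. All 3 infused arrays were similar and above all controls (log2 change 1.51, adjusted p = 0.000174). The gelatinase Mmp2 was not called (log2 change 0.04, adjusted p = 0.862), and Timp4, an inhibitor, was lower (log2 change −2.10, adjusted p = 0.00364).

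Chemokine and macrophage genes were higher on infused arrays 1 and 2 and lay much nearer the controls on array 3. In bulk RNA more cells of a type and more RNA per cell, or fewer and less, cannot be told apart. Of 29 chemokines and receptors 20 were higher and 2 lower, with medians of 2.44, 2.80 and 0.57 on the infused arrays, against −0.14, −0.06 and 0.23 on the controls. The overall median was 2.03, or 2.005 with the 4 dim genes at their bounds. Under the slide block 0 were higher and 1 was lower, and the median was 1.45. On the slide of the controls, infused arrays 1 and 2 from mice on 1% NaCl had medians of 1.25 and 1.54.

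Ccl7, a monocyte attractant, had levels of 4.09, 4.66 and 1.49 in infused aortas, against −1.15, −0.95 and 0.09 in control aortas. Ccr2, the receptor by which monocytes follow such signals, had levels of 1.501, 1.40 and −0.85 in infused aortas, against −2.31, −2.18 and −1.70 in control aortas. Cxcl1, which attracts neutrophils, had levels of 0.99, 2.18 and −1.97 in infused aortas, against −2.14, −1.76 and −2.28 in control aortas. For Ccl7 and Ccr2 even array 3 stood clear of the controls, whereas for Cxcl1 it lay within them (log2 change 4.08, adjusted p = 0.000198 for Ccl7, log2 change 2.75, adjusted p = 0.00806 for Ccr2 and log2 change 2.46, adjusted p = 0.0264 for Cxcl1). Ccl17, made by dendritic cells and alternatively activated macrophages, stood above background on every infused and on 0 of 3 control arrays and was at least 15.4-fold higher (adjusted p = 0.000737). The eosinophil attractants Ccl11 and Ccl24 went the other way. Ccl11 had levels of −1.61, −1.46 and −0.78 in infused aortas, against −0.10, 0.82 and 0.99 in control aortas. It was lower on all 3 infused arrays and kept its call with the block (log2 change −1.85, adjusted p = 0.000232 and, with the block, log2 change −2.38, adjusted p = 0.0339), and Ccl24 was lower without it (log2 change −1.62, adjusted p = 0.000638).

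Il6 had levels of 3.02, 4.73 and −5.01 in infused aortas, against −6.82, −6.15 and −6.04 in control aortas. It was high on infused arrays 1 and 2 and below background on array 3, and it was at least 41.8-fold higher (adjusted p = 0.00369, and 0.492 with the slide block), with 2 of 3 infused arrays and 0 of 3 controls above background. Of 14 genes of the interleukin 6 family and its signalling 7 were higher and 2 lower (0 and 0 with the slide block). Socs3, which STAT3 induces, had levels of 2.28, 3.30 and 0.06 in infused aortas, against 0.37, 0.42 and 0.28 in control aortas. It too was raised on arrays 1 and 2 alone, array 3 being the lowest of all 6 (log2 change 1.52, adjusted p = 0.0451). The receptor subunit Osmr was higher (log2 change 0.96, adjusted p = 0.0125) and the shared subunit Il6st lower (log2 change −0.36, adjusted p = 0.0231). Among 19 interleukin 1, TNF and inflammasome genes 7 were higher and 0 lower (0 and 0 with the slide block). Il1b, interleukin 1β, had levels of 1.22, 2.36 and −4.46 in infused aortas, against −4.49, −3.99 and −4.79 in control aortas. Array 3 lay with the controls (log2 change 4.13, adjusted p = 0.022), and 2 of 3 infused and 1 of 3 control arrays were above background. Pycard, the inflammasome adaptor, was higher on all 3 (log2 change 1.40, adjusted p = 0.00414), while Nlrp3 and Casp1 were not called (log2 change 0.19, adjusted p = 0.734 and log2 change 0.28, adjusted p = 0.359).

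Macrophage markers were called higher for 20 of 24 genes and lower for 0, with medians of 1.70, 1.90 and 0.39 on the infused arrays, against −0.36, 0.10 and 0.24 on the controls. Their summed linear signal, in units of the array's 75th percentile, was 360, 404 and 280 on the infused arrays, against 191, 199 and 254 on the controls. Fitting slide as a block left 0 called, and the median was 1.03. Trem2, a lipid-sensing receptor of tissue macrophages, had levels of 3.26, 3.41 and 1.62 in infused aortas, against 0.34, 0.67 and 1.08 in control aortas. Adgre1, the F4/80 antigen, had levels of 2.44, 2.62 and 1.24 in infused aortas, against 0.43, 0.85 and 0.96 in control aortas. Csf1r, the receptor on which macrophages depend, had levels of 5.53, 5.67 and 4.85 in infused aortas, against 4.35, 4.89 and 4.91 in control aortas. Arrays 1 and 2 exceeded the controls for the 3 genes, while array 3 cleared them for Trem2 and Adgre1 and not for Csf1r (log2 change 2.07, adjusted p = 0.00197 for Trem2, log2 change 1.35, adjusted p = 0.0068 for Adgre1 and log2 change 0.63, adjusted p = 0.0474 for Csf1r). With p adjusted over all probes 0 of 3 Csf1r probes were called, with log2 changes of 0.08 to 0.63. Lyve1, a marker of resident vessel-wall macrophages, was called (log2 change 0.50, adjusted p = 0.021) and Folr2, another, was not (log2 change 0.27, adjusted p = 0.439). Plac8, of recently arrived monocytes, had levels of 3.28, 3.19 and 0.05 in infused aortas, against −0.61, 0.08 and 0.89 in control aortas. Array 3 was within the control range (log2 change 2.05, adjusted p = 0.0255).

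Neutrophil markers were called higher for 5 of 12 genes, with medians of 3.14, 3.89 and 0.37 on the infused arrays, against −0.03, −0.20 and 0.36 on the controls. S100a9, a cytosolic protein abundant in neutrophils, had levels of 2.85, 4.46 and −2.22 in infused aortas, against −1.45, −2.61 and −1.45 in control aortas. It was high on infused arrays 1 and 2, and array 3 lay among the controls (log2 change 3.53, adjusted p = 0.0478). Ly6g, the surface marker of the lineage, had levels of 0.56, 0.46 and 0.34 in infused aortas, against −0.65, −0.03 and 0.43 in control aortas. It was not called (log2 change 0.54, adjusted p = 0.0885). The list's median was 2.45, or 0.73 with its 3 dim genes at their bounds, and its summed signal was 224, 292 and 280 on the infused arrays, against 228, 197 and 241 on the controls. Under that block 0 were called higher. Among 14 genes of T, NK and B cells 2 were higher and 0 lower (0 and 0 with the slide block), and the T cell receptor subunit Cd3e was not called (log2 change 0.18, adjusted p = 0.664).

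Among 19 complement genes 7 were higher and 6 lower, beside 12.2% and 13.7% of all genes. The slide block left 0 and 0, and the list's median turned from −0.24 to 0.34 with it. The 3 chains of C1q, which macrophages make, were higher (log2 changes 0.80, 0.77 and 0.77 for C1qa, C1qb and C1qc), as were the anaphylatoxin receptors C3ar1 and C5ar1 (log2 change 1.63, adjusted p = 0.00501 and log2 change 1.80, adjusted p = 0.00184). The proteases C1ra and C1s1 and the pore component C7 were lower (log2 change −0.97, adjusted p = 0.0033, log2 change −0.56, adjusted p = 0.0225 and log2 change −1.72, adjusted p = 0.0161). C3 itself was not called (log2 change −0.28, adjusted p = 0.383). Of 22 interferon-induced genes 2 were higher and 0 lower, beside 12.2% and 13.7% of all genes. Without infused array 3, 8 were higher, beside 16.6% of all genes, and the median was 0.56, against 0.23 with all arrays and 0.92 with the slide block. Isg15, the ubiquitin-like interferon product, had levels of 1.65, 1.95 and 0.80 in infused aortas, against 0.21, 0.48 and 0.63 in control aortas, the infused arrays all lying above the controls without a call (log2 change 1.03, adjusted p = 0.0537). This is its brightest probe, and of its 2 probes 1 was called higher, with log2 changes of 1.03 and 1.67.

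Smooth muscle genes were lower in part, and Acta2, Tagln, Cnn1 and Myh11, which build the contractile apparatus, were not called. Of 26 contractile genes 0 were higher and 8 lower, and 24 of 26 had a negative log2 change. The list medians were −0.51, −0.74 and −0.36 on the infused arrays. Fitting slide as a block left 0 called, and the median was −0.20. Acta2, smooth muscle actin, had levels of 9.501, 9.56 and 9.67 in infused aortas, against 9.59, 9.48 and 9.94 in control aortas. Myh11, smooth muscle myosin, had levels of 5.71, 5.68 and 6.82 in infused aortas, against 6.92, 6.74 and 7.04 in control aortas. Groups overlapped for both and neither was called (log2 change −0.09, SE 0.14, adjusted p = 0.669 for Acta2, log2 change −0.83, SE 0.38, adjusted p = 0.117 for Myh11). Srf, the transcription factor that drives these genes through CArG boxes, had levels of 2.27, 1.86 and 2.09 in infused aortas, against 3.31, 3.30 and 3.17 in control aortas. It was lower on all 3 infused arrays, with array 3 as low as the others (log2 change −1.19, SE 0.26, adjusted p = 0.00347), and lost its call with the block (log2 change −1.07, adjusted p = 0.0946). This is its brightest probe, and its other probe was not called (log2 change −0.15). Its coactivator Myocd was not called (log2 change −0.49, adjusted p = 0.347).

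The CArG box was found in 19.2% of 26 windows of contractile genes, against 1.47% of all windows of the same length. The matching windows belonged to 4 of the 20 genes that had a window. Ldb3 entered with overlapping windows that hold the same site. The promoter of Srf itself holds a pair, in capitals in the 120 bases before the start site below (RefSeq, GRCm38.p6, 5′ to 3′ on the strand of the gene). They are shown because the brightest probe of Srf was called lower.
Srf (chr17:46556163-46556282, minus strand): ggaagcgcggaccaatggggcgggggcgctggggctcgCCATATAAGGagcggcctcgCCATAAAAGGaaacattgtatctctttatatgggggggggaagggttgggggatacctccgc

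Calcium and potassium handling was the list most often called lower among smooth muscle lists, with 12 of 21 lower and 0 higher, beside 13.7% and 12.2% of all genes. Its medians were −0.75, −1.14 and −0.46 on the infused arrays. Atp2a2, the SERCA2 pump that refills the calcium store, had levels of 1.96, 1.61 and 2.16 in infused aortas, against 3.26, 3.34 and 3.19 in control aortas. Itpr1, the channel that empties it, had levels of 4.04, 3.53 and 4.44 in infused aortas, against 5.31, 5.36 and 5.16 in control aortas. Kcnma1, the pore of the large-conductance potassium channel, had levels of 1.09, 0.57 and 1.05 in infused aortas, against 1.86, 1.74 and 1.499 in control aortas. For all 3 genes each infused array lay below each control, with array 2 lowest (log2 change −1.36, SE 0.24, adjusted p = 0.00082 for Atp2a2, log2 change −1.28, SE 0.25, adjusted p = 0.00173 for Itpr1, log2 change −0.80, SE 0.19, adjusted p = 0.00641 for Kcnma1). With the slide block only Atp2a2 of the list was called (log2 change −1.12, adjusted p = 0.0336). These values are of the brightest probes. Without the block 1 of 2 Atp2a2 probes was called lower, with log2 changes of −1.36 and −0.71. Of 3 Kcnma1 probes 2 were called lower, with log2 changes of −0.80 to −0.35. Abcc9, a subunit of ATP-sensitive potassium channels, had levels of 3.17, 3.31 and 4.60 in infused aortas, against 4.55, 4.32 and 4.64 in control aortas, and array 3 overlapped the controls (log2 change −0.81, adjusted p = 0.0412; 0.01 with the block). Ano1 and Kcnmb1 were not called (log2 change 0.15, adjusted p = 0.516 and log2 change −0.26, adjusted p = 0.251).

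Both subunits of the nitric oxide receptor, soluble guanylate cyclase, were lower: Gucy1a1 had levels of 2.98, 2.14 and 3.73 in infused aortas, against 4.81, 4.87 and 4.43 in control aortas. Gucy1b1 had levels of 3.41, 2.80 and 3.60 in infused aortas, against 4.53, 4.64 and 4.29 in control aortas. Prkg1, the cyclic GMP-dependent kinase, had levels of 0.77, 0.67 and 1.13 in infused aortas, against 2.15, 2.21 and 1.60 in control aortas. Groups were separate for the 3 genes (log2 change −1.76, adjusted p = 0.00104, log2 change −1.21, adjusted p = 0.000543 and log2 change −1.13, adjusted p = 0.00296, in that order), and with the block the log2 changes were −1.25, −1.001 and −0.85 without a call. Among 30 cyclic GMP and vasoactive receptor genes 9 were lower and 2 higher, and 0 were called with the slide block. Nos2, the inducible synthase, was one of the higher (log2 change 0.95, adjusted p = 0.00271), and Nos3, the endothelial one, was not called (log2 change −0.35, adjusted p = 0.504). The thromboxane receptor Tbxa2r and the adrenergic receptor Adra1d were lower (log2 change −0.96, adjusted p = 0.0156 and log2 change −1.26, adjusted p = 0.045).

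**Figure D4:**
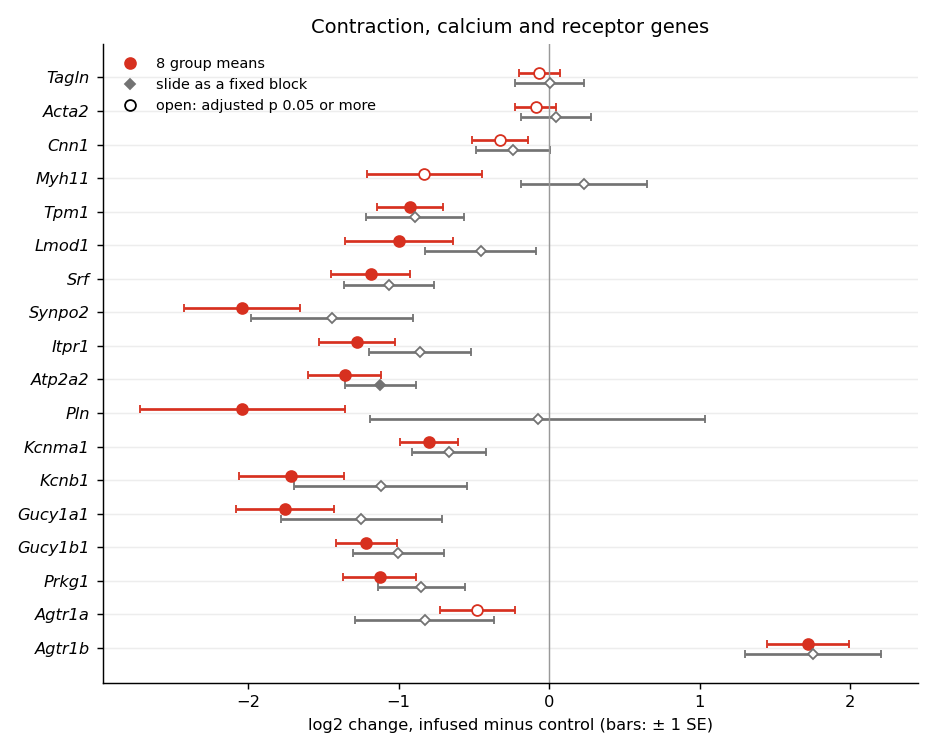
Log2 change, infused minus control, of contraction, calcium and receptor genes with bars of 1 SE, from the fit with 8 group means (red circles) and with slide as a fixed block (grey diamonds), filled where the adjusted p is under 0.05. Acta2 and Tagln lie near 0, Gucy1a1, Gucy1b1 and Kcnma1 lie below it in both fits, Pln lies below it only without the block, Agtr1b lies above it, and of the genes drawn only Atp2a2 is filled in both.

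Among 22 endothelial genes 7 were higher and 1 was lower (1 and 0 with the slide block). Esm1, a secreted marker of sprouting tip cells, had levels of 5.46, 5.17 and 2.81 in infused aortas, against −0.31, −0.37 and −0.52 in control aortas. It stood 29.4-fold higher, with all infused arrays above all controls and a call in both fits (log2 change 4.88, adjusted p = 4.03e-05 and, with the block, log2 change 4.32, adjusted p = 0.0288). The adhesion molecule Vcam1, which smooth muscle also makes under inflammation, had levels of 4.61, 4.97 and 3.97 in infused aortas, against 2.98, 3.42 and 2.73 in control aortas. Selp, P-selectin, had levels of 1.09, 1.85 and 0.48 in infused aortas, against −0.28, −0.27 and −0.98 in control aortas. Neither overlapped, and both were called without the block (log2 change 1.48, adjusted p = 0.000947 and log2 change 1.65, adjusted p = 0.00341). Pecam1 and Cdh5, of the endothelial junction, were not called (log2 change −0.24, adjusted p = 0.554 and log2 change 0.76, adjusted p = 0.116).

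Adventitial fibroblast genes were called lower for 12 of 20 and higher for 2 (2 and 1 with the slide block), with medians of −0.90, −0.86 and −0.23 on the infused arrays, against −0.19, 0.14 and 0.06 on the controls. Clec3b, a plasminogen-binding protein of these cells, had levels of −3.26, −2.90 and −1.79 in infused aortas, against −0.40, 0.00 and 0.00 in control aortas. Pi16, which marks a progenitor-like fibroblast of the adventitia, had levels of 4.99, 5.34 and 6.11 in infused aortas, against 6.10, 6.56 and 6.84 in control aortas. Gsn, the actin-severing protein gelsolin, had levels of 6.30, 5.98 and 6.72 in infused aortas, against 7.25, 7.47 and 7.44 in control aortas. Infused arrays 1 and 2 were well below the controls for the 3 genes, and array 3 lay between for Clec3b and Gsn and touched the lowest control for Pi16 (log2 change −2.52, adjusted p = 0.0051 for Clec3b, log2 change −1.02, adjusted p = 0.00761 for Pi16 and log2 change −1.05, adjusted p = 0.00142 for Gsn). Gsn alone of these was called with the slide block (log2 change −1.20, adjusted p = 0.0463). Without the block 1 of 2 Gsn probes was called lower, with log2 changes of −1.05 and −0.745. Col15a1, a fibroblast basement membrane collagen, was higher in both fits (log2 change 1.58, adjusted p = 0.0102 and, with the block, log2 change 2.81, adjusted p = 0.0463), and the general fibroblast marker Pdgfra was not called (log2 change −0.26, adjusted p = 0.318). The list's summed signal was 772, 804 and 954 on the infused arrays, against 1063, 1272 and 1262 on the controls.

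Other cells that an aorta sample can carry were checked by their markers. White adipocyte genes were called higher for 1 and lower for 2 of 20 (0 with the slide block), and Adipoq had levels of 0.62, 0.80 and −0.76 in infused aortas, against 0.23, 0.09 and 1.92 in control aortas. Control 3 was the highest array and infused array 3 the lowest (log2 change −0.52, adjusted p = 0.538). Of 8 mesothelial and epithelial genes 0 were called, and Msln had levels of 0.28, 1.66 and 0.80 in infused aortas, against 0.86, 2.92 and 2.18 in control aortas. These arrays overlapped, control 2 being the highest (log2 change −1.07, adjusted p = 0.294). Of 9 striated muscle genes 0 were called. Hba-a1, an α-globin with a near-identical copy, had levels of 4.78, 6.49 and 7.17 in infused aortas, against 6.34, 4.15 and 7.44 in control aortas. Its level spread widely within both groups. Of 8 genes of Schwann cells and neurons 3 were lower, among them the markers Mal and Prx of myelinating Schwann cells (log2 change −2.05, adjusted p = 0.00705 and log2 change −0.83, adjusted p = 0.0205). Under the slide block the median of the white adipocyte list turned from −0.54 to 0.10 and that of the mesothelial list from −0.93 to 0.08. The part of these cells in the other results was not tested.

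Among 27 growth factor genes and binding proteins 11 were higher and 3 lower, beside 12.2% and 13.7% of all genes. With slide as a block 2 and 0 were called, and the median was 0.08, against 0.27 without it. Igf1, a mitogen for smooth muscle, had levels of 4.96, 5.12 and 4.004 in infused aortas, against 1.66, 2.02 and 2.40 in control aortas. Igfbp2, one of its binding proteins, had levels of 5.41, 5.51 and 4.09 in infused aortas, against 1.02, 1.80 and 2.41 in control aortas. Infused arrays were all above the controls, array 3 the least, and both genes were called in both fits (log2 change 2.67, adjusted p = 6.58e-05 and, with the block, log2 change 2.33, adjusted p = 0.0282 for Igf1; log2 change 3.26, adjusted p = 5.59e-05 and log2 change 3.19, adjusted p = 0.0294 for Igfbp2). The binding proteins Igfbp5 and Igfbp6 were lower (log2 change −1.30, adjusted p = 0.00628 and log2 change −1.12, adjusted p = 0.00414). The vascular growth factor Vegfa was not called (log2 change 0.27, adjusted p = 0.301).

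Of 27 TGF-beta and BMP genes 7 were higher and 3 lower, beside 12.2% and 13.7% of all genes, and 0 were called with the slide block. The ligand Tgfb1 was higher (log2 change 0.60, adjusted p = 0.00333), the receptors Tgfbr2 and Tgfbr3 were lower (log2 change −0.61, adjusted p = 0.00444 and log2 change −1.30, adjusted p = 0.00108), and Smad3 was not called (log2 change −0.24, adjusted p = 0.265). Of 2 Tgfbr2 probes 1 was called, the other changing by −0.11. Fst, the activin inhibitor follistatin, had levels of 2.85, 2.79 and 1.43 in infused aortas, against 0.02, 0.27 and 0.66 in control aortas. It was higher on each infused array (log2 change 2.04, adjusted p = 0.000737). Of 14 Notch genes 0 were higher and 5 lower (0 and 0 with the slide block). Notch3, the receptor of smooth muscle, had levels of 0.49, 0.52 and 1.26 in infused aortas, against 2.09, 1.70 and 1.79 in control aortas. Heyl, one of its target genes, had levels of 1.53, 0.75 and 2.82 in infused aortas, against 3.61, 2.99 and 3.00 in control aortas. Both were lower on every infused array, least on array 3 (log2 change −1.10, adjusted p = 0.0495 and log2 change −1.504, adjusted p = 0.00765, with log2 changes of 0.15 and −1.02 under the slide block). Of 20 Wnt genes 2 were higher and 4 lower, shares near those of all genes, and 0 were called with the slide block (median −0.05, against −0.37 without it). Among the lower were the inhibitors Sfrp2 and Wif1 (log2 change −1.18, adjusted p = 0.0166 and log2 change −0.93, adjusted p = 0.0109).

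Of 24 amino acid synthesis and tRNA charging genes 11 were higher and 0 lower, with medians of 0.82, 0.63 and 0.11 on the infused arrays. Asns, asparagine synthetase, had levels of 3.11, 3.03 and 0.52 in infused aortas, against −0.15, −0.16 and 0.17 in control aortas. Psat1, of serine synthesis, had levels of 2.92, 2.72 and 1.20 in infused aortas, against −0.66, −0.42 and −0.32 in control aortas. Mthfd2, of mitochondrial folate metabolism, had levels of 0.83, 1.001 and −0.52 in infused aortas, against −1.44, −1.45 and −1.45 in control aortas. All 3 infused arrays exceeded the controls for each gene, Asns on array 3 by the least (log2 change 2.27, adjusted p = 0.00276 for Asns, log2 change 2.74, adjusted p = 0.000154 for Psat1 and log2 change 1.88, adjusted p = 0.000725 for Mthfd2). With the block 0 of the list were called. The element through which the factor ATF4 is known to act on such genes has the core TGATGNAA. It was found on either strand in 28.6% of 21 windows of the list, against 3.45% of all windows. The Asns window is shown with its match in capitals (RefSeq, GRCm38.p6, 120 bases before the start, 5′ to 3′ on the strand of the gene).
Asns (chr6:7693210-7693329, minus strand): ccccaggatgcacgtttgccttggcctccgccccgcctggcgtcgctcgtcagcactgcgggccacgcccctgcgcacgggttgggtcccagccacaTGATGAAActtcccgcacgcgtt

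Of other targets of ATF4, Ddit3 was lower (log2 change −0.69, adjusted p = 0.0232) and Trib3 was not called (log2 change −0.43, adjusted p = 0.144). Of 24 chaperone and unfolded protein response genes of the endoplasmic reticulum 8 were higher and 1 lower (0 and 0 with the slide block). Pdia6, a disulphide isomerase, had levels of 6.92, 6.85 and 6.15 in infused aortas, against 5.71, 5.74 and 5.32 in control aortas. Each infused array exceeded each control (log2 change 1.05, adjusted p = 0.00243), and the main chaperone Hspa5 was higher by less (log2 change 0.57, adjusted p = 0.0322). Of 25 ribosome biogenesis genes 2 were higher and 1 lower (0 and 0 with the slide block). Their medians, 0.40, 0.42 and −0.24 on the infused arrays, had opposite signs on arrays 1 and 2 and on array 3, where 19 of 25 genes lay below all controls, beside 33.3% of all genes on that array.

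Glycolysis and hypoxia genes gave 6 of 26 higher and 2 lower (1 and 0 with the slide block). Ldha, lactate dehydrogenase, had levels of 7.75, 7.62 and 6.65 in infused aortas, against 6.14, 6.26 and 6.21 in control aortas. Slc16a3, the lactate exporter, had levels of 4.09, 3.96 and 3.19 in infused aortas, against 2.23, 2.33 and 2.44 in control aortas. Both were separate between groups (log2 change 1.13, adjusted p = 0.000878 for Ldha and log2 change 1.41, adjusted p = 8.81e-05 for Slc16a3), and Slc16a3 was called with the block (log2 change 1.44, adjusted p = 0.0481). Of 24 fatty acid oxidation genes 9 were lower and 0 higher (0 called with the slide block), with log2 changes of −0.70 (Acadm, an acyl-CoA dehydrogenase) to −0.29 (Etfa, an electron carrier) in 8 of them. The ninth, Fabp3, a muscle fatty acid carrier, had levels of 2.38, 1.90 and 3.19 in infused aortas, against 4.04, 4.14 and 4.58 in control aortas. All 3 infused arrays were below the controls (log2 change −1.77, adjusted p = 0.000817). Of 33 respiratory chain and citrate cycle genes 0 were higher and 3 lower (0 and 0 with the slide block). On infused array 3, 25 of the 33 lay below all controls, beside 33.3% of all genes. On infused array 1, 21 of the 33 lay above all controls, beside 8337 of all 23503 genes. Of 23 oxidase and antioxidant genes 5 were higher and 3 lower (1 and 0 with the slide block): Cybb, the phagocyte oxidase, was higher (log2 change 1.01, adjusted p = 0.00643), and Nox4, the oxidase of vascular smooth muscle, was lower (log2 change −1.05, adjusted p = 0.0102).

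Clock genes split the infused arrays. Of 18, 0 were higher and 2 lower (0 and 0 with the slide block), and the medians were −0.79, −0.71 and 0.11 on the infused arrays. Dbp, an output of the clock, had levels of 5.18, 4.72 and 6.89 in infused aortas, against 6.54, 6.86 and 6.71 in control aortas. Per3, a period gene, had levels of −2.89, −2.22 and 0.02 in infused aortas, against −1.13, −1.06 and −0.51 in control aortas. Arrays 1 and 2 were below the controls and array 3 was above them or at their top, and neither gene was called (log2 change −1.10, adjusted p = 0.293 and log2 change −0.80, adjusted p = 0.4). Arntl, whose product activates these genes, had levels of −0.05, −0.64 and −2.54 in infused aortas, against −0.54, −1.42 and −1.45 in control aortas. Here infused array 3 was the lowest of the 6 (log2 change 0.06, adjusted p = 0.953). The times at which aortas were taken are not given in the labels used here. The list's median with the slide block was 0.45, against −0.40 without it, and the infused arrays of mice on 1% NaCl had medians of −0.51, −0.13 and −1.41.

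Array 3 did not respond equally across lists. Its median was 68.4% of the mean of infused arrays 1 and 2 for mitosis, 66.8% for DNA replication and 65.4% for collagen chains. The same share was 21.4% for macrophages, 21.8% for chemokines and 10.5% for neutrophils. Among other matrix lists it was 27.7% for lysyl oxidases, 27.7% for matricellular proteins and 35.8% for procollagen maturation. For amino acid synthesis and tRNA charging it was 15.4%. Of lists with lower medians, contractile smooth muscle had 58.3%, cyclic GMP and vasoactive receptors 53.2%, calcium and potassium handling 49% and adventitial fibroblasts 26.6%. These shares are descriptions of a single array, with no test. For neutrophils the median of infused array 3 was 0.37, no further from 0 than control array 3 by more than a trace (0.36). For macrophages it was 0.39, beside 0.24 on control array 3. Counted over single genes, array 3 lay above all controls for 38 of 41 mitosis genes, 35 of 36 replication genes and 13 of 24 macrophage genes, beside 33.7% of all genes.

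**Figure D5:**
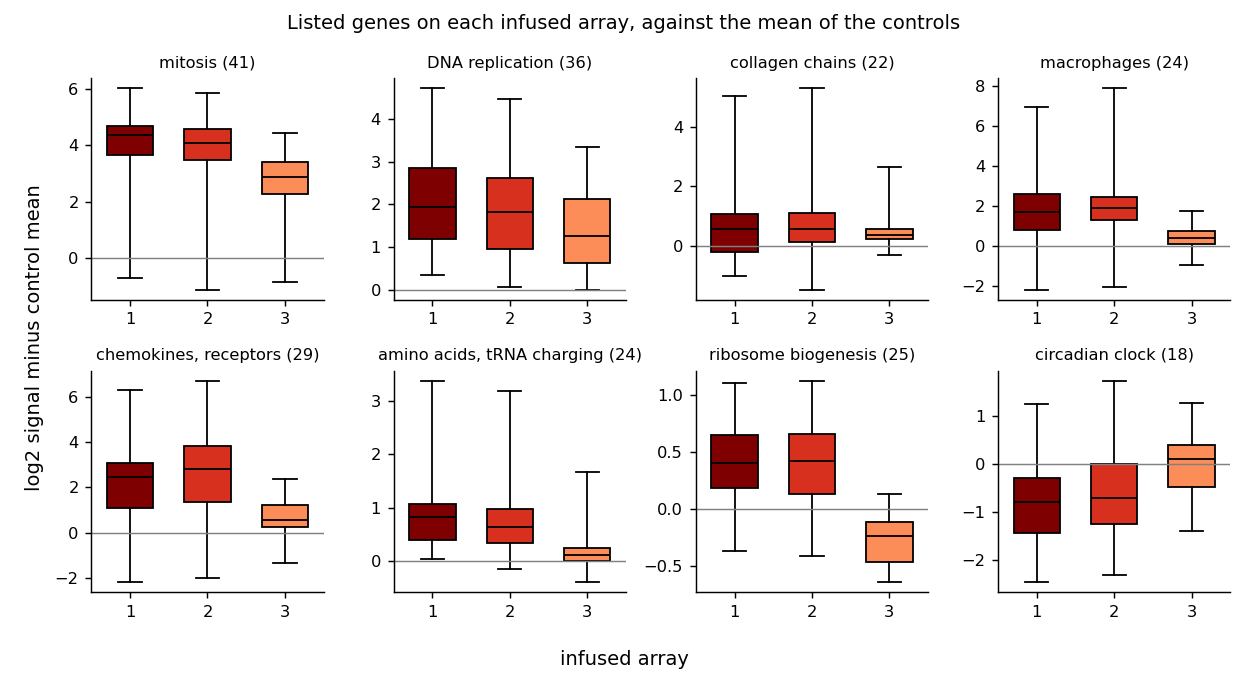
Log2 signal minus the mean of the controls for the genes of 8 lists on infused arrays 1, 2 and 3, as boxes of the middle 50% with the median and whiskers over the whole range. Mitosis, DNA replication and collagen boxes on array 3 lie above 0, whereas the median of ribosome biogenesis is −0.24 and that of the clock 0.11 on array 3.

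Over all genes, in the lists or not, the 12 largest increases held further members of the cell cycle, and the 12 largest decreases were a mixed set. The largest fitted increases were those of Il6 and Spp1, osteopontin, Spp1 being at least 63.9-fold higher (adjusted p = 0.000139, and 0.0828 with the slide block). Among kinetochore genes Ska3 was at least 7.12-fold higher (adjusted p = 6.15e-05) and Ska1, above background on 1 of 3 controls, was called as well (log2 change 5.26, adjusted p = 9.73e-05). Melk, a mitotic kinase, had levels of 0.79, 0.61 and −0.55 in infused aortas, against −4.71, −5.05 and −3.98 in control aortas. Shcbp1, which acts at the midbody, had levels of 1.40, 1.19 and −0.24 in infused aortas, against −4.15, −4.72 and −3.78 in control aortas. Infused and control arrays were far apart for both, with 1 and 2 of 3 controls above background, and both were called in both fits (log2 changes 4.87 and 5.003, adjusted p with the block 0.0392 and 0.019). Mefv, pyrin, and Sirpb1b, a receptor of myeloid cells, were at least 16.5-fold and at least 22.3-fold higher, each seen above background on every infused array and on 0 of 3 controls (adjusted p = 0.00176 and 0.00305). Saa3, an acute-phase protein, was at least 8.97-fold higher and above background on infused arrays 1 and 2 only (adjusted p = 0.00176). The largest decrease was that of Inmt, indolethylamine N-methyltransferase, which had levels of −0.40, −0.42 and 2.52 in infused aortas, against 4.77, 5.14 and 4.97 in control aortas. All infused arrays were below all controls, and it was called in both fits (log2 change −4.39, SE 0.56, adjusted p = 8.81e-05; with the block log2 change −4.57, adjusted p = 0.0353). Muc4, a membrane mucin, had levels of −4.52, −4.77 and −3.45 in infused aortas, against −0.94, −1.32 and −0.81 in control aortas, and was above background on 1 of 3 infused arrays and called in both fits (log2 change −3.23, adjusted p = 0.000798 and, with the block, log2 change −2.64, adjusted p = 0.0306). Mybpc2, fast skeletal myosin-binding protein C, had levels of −3.39, −3.29 and −2.63 in infused aortas, against −0.04, −0.43 and 0.08 in control aortas, with no overlap and a call without the block only (log2 change −2.98, adjusted p = 0.00132). Lcn8 and Vwa3a stood above background on 0 of 3 infused arrays and on every control and were at least 3.15-fold and at least 5.4-fold lower (adjusted p = 7.53e-05 and 0.000555). Serpinb5, a serpin, and Opcml, a surface adhesion molecule, were at least 2.73-fold and at least 2.07-fold lower, above background on 2 and 1 of 3 controls and on 0 infused arrays (adjusted p = 0.000484 and 0.000604). Against the same controls, wild-type mice on 1% NaCl without BAPN and angiotensin II also had lower Serpinb5 and Lcn8 (log2 changes −2.18 and −1.50). Neither was called there, and Vwa3a and Opcml changed by −0.39 and −0.26. Whether the decreases of Serpinb5 and Lcn8 were particular to infusion was not tested. The transcript 2310002D06Rik was at least 3.72-fold lower (adjusted p = 0.00126). The remaining large decreases were those of Igsf1, Fn3k, Serpina1d and Gprasp2, with log2 changes of −2.94, −2.76, −2.73 and −2.71 (adjusted p = 0.0139, 0.00097, 0.00377 and 0.000395). Igsf1 and Fn3k were above background on 1 of 3 infused arrays, and Serpina1d has near-identical copies.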

How the data were processed

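Aortic RNA of 24 samples (8 groups of 3) was hybridised to one-colour Agilent arrays. The authors deposited scanner output per array, whose processed signal is a background-subtracted intensity, per the file headers (Feature Extraction 10.7.1.1, where the submitters' processing notes name 9.5.1.1). The authors also deposited a table of processed intensity values, with a median of 30.982 and a Spearman correlation of at least 0.99996 with the scanner signal. It served as an alternative.

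From the deposited intensity, log2 values were computed minus each array's 75th percentile. Spots of 1 probe were averaged, and control spots and 2910 outlier spots were left out. Of 55681 probes 33379 were kept, those well above background throughout at least 1 group of arrays. Genes were named through RefSeq accessions on GRCm38.p6 where these matched (27325 probes), otherwise by the name in the files, and the brightest kept probe stood for a gene. The array's own coordinates are mm9.

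limma 3.58.1 in R 4.3.3 fitted 8 group means to 23503 genes, with Benjamini-Hochberg adjustment. The code was tested on simulated data. An "at least" fold sets the bright group's mean against the lowest signal well above background on each array of the dim group. For Il6, Saa3, Serpinb5 and Opcml the bright group also held arrays below background, which entered its mean at their measured signal. The folds of these genes are therefore not strict bounds. Intensity counts no molecules, so the number of arrays limits the precision.

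Genes named are list members above background on all 3 arrays of a group or defining their list, those with the smallest adjusted p and largest change first, besides the 12 largest changes each way with separate groups. The members and the 47 lists (963 genes) were chosen with earlier results of these data known, and a few were named after their values were seen. Some members are not reported here. Alternatives were the scaling, the background correction, the authors' values, the filter, slide and replicate blocks, the arrays in the fit and leaving out each array. Figures were drawn with matplotlib 3.10.9.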

Additional observations from a re-analysis of the deposited data

How the results depend on the processing

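The 6085 genes called, 2863 higher and 3222 lower, kept within 1.5 times these counts under quantile normalization, normexp background correction, the authors' own table, all probes without the filter, and the replicate block (5660 calls with it). Slide as a fixed block left 261 (171 higher and 90 lower), slide as a random block 772 (401 and 371, with an estimated correlation of 0.482), and the compared groups alone 1237 (754 and 483). Leaving out each of the 6 arrays in turn gave 2674 to 8103 calls, 1343 to 3907 higher and 1331 to 4196 lower. Without the third infused arrays of both genotypes, an alternative chosen after seeing the data, 9402 were called (4530 and 4872).

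Of 159 called genes named in the text, 157 kept direction and call under quantile normalization, 156 under normexp and 156 with the authors' values. With the fixed slide block 34 kept them, 122 kept the direction only and 3 reversed (Abcc9 to 0.0079, Has2 to −0.37 and Notch3 to 0.15), and the cause was not tested. With the random slide block 60 kept their call, and with the compared groups alone 77. Without infused array 2, 45 of the 159 lost their call, the most of any left-out array. Of 47 list medians 10 turned sign under the fixed slide block.

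Replicate numbers did not pair the arrays: deviations from the group mean correlated at −0.10, −0.01 and −0.03 across genes between same-numbered infused and control arrays, and 8 of the 159 lost their call with the replicate block.

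Infusion and slide cannot be told apart by these 6 arrays, 3 a side limit the precision, and nothing beyond their labels says whether an array stands for 1 animal or several.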

Other observations

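The response to infusion in wild-type mice on plain water was set against that of mice lacking IL-17 on plain water, each with its own vehicle controls. In limma 0 of 23503 genes differed in their response at an adjusted p under 0.05 (the smallest was 0.216). Of the 23503, 1531 had an unadjusted p under 0.05, where a fraction of 0.05 is expected with no difference. The genotypes lay on separate slides.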
